A study of Mus musculus with 8 samples.

Results

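The 8 genes described here encode transcription factors of the HNF and FOXA network, namely Hnf4a, Hnf4g, Foxa1, Foxa2, Foxa3, Cebpa, Onecut1 and Prox1. They were taken by symbol from a deposited expression table, in which each of the 8 had 1 entry among 52195 genes. The table held bulk RNA sequencing of liver, small intestine, kidney and lung of the mouse, with 2 biological replicates per tissue and 8 libraries in all. The animals were male mice of the inbred strain C57BL/6 (C57BL/6J in the methods), between 6 and 10 weeks old, with no transgene, deletion or treatment named, and the tissues were excised whole, so every library is a mixture of cell types. All 4 tissues were taken from each mouse, so libraries of different tissues share animals, while the fits and exact tests treat the 8 libraries as independent. The study used such bulk profiles to estimate cell types from single-cell signatures. The question asked of the data here is which member of each factor family was used in each tissue.

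HNF4 proteins are nuclear receptors that bind DNA as dimers, and FOXA proteins are forkhead factors that can bind closed chromatin and open it for other factors. Together with C/EBPα, the Onecut factor HNF6 and the homeodomain factor PROX1, they form a cross-regulating network that is best known from the specification of hepatocytes, while HNF4 factors also act in the intestinal epithelium and the proximal tubule and FOXA factors in the airway and alveolar epithelium. Paralogues of a family recognise nearly the same DNA letters, so their tissue distribution decides which of them can occupy a shared site.

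Levels are given as FPKM (fragments scaled to exon length in kilobases and to library size), which are per length and can be compared between genes. The libraries held between 9164183 and 21444657 reads on genes, recovered from the steps in the FPKM values, and a value of less than 3 reads is called not detectable at this depth, which covers counting error only. Mitochondrial transcripts and their nuclear copies took between 22.8% and 68.4% of the summed FPKM, lowest in lung and highest in kidney, and the median gene lay away from 0 in most comparisons of log2(FPKM + 1), by -0.72 in liver, -0.01 in small intestine, -0.34 in kidney and 0.82 in lung against the mean of the other 3 tissues. Each tissue carried its own defining markers, with a summed FPKM of 5 hepatocyte markers of 43926 and 39451 in the liver libraries, of 4 enterocyte markers of 5456 and 7085 in small intestine, of 5 proximal tubule markers of 2332 and 2099 in kidney and of 4 alveolar type 2 cell markers of 15189 and 13194 in lung. In bulk samples, fewer cells that express a gene and less of its RNA per cell cannot be told apart.

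**Figure D1:**
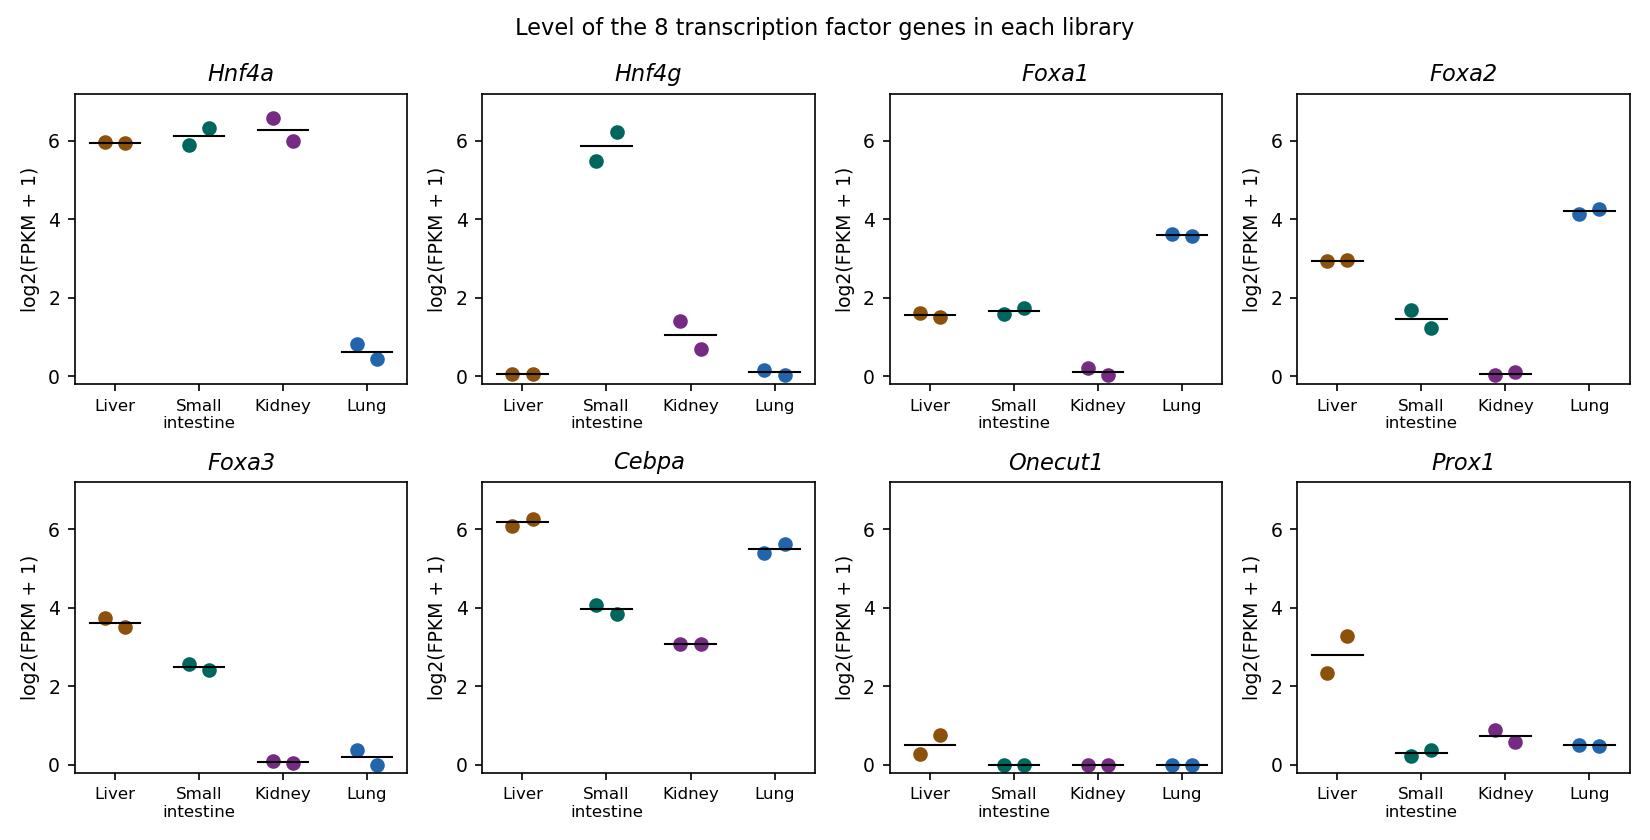
Level of each of the 8 genes on the log2(FPKM + 1) axis in liver, small intestine, kidney and lung, with 1 point per library and a line at the mean of the 2 libraries. Hnf4a sits near 6 in every tissue but lung, Hnf4g reaches that height in small intestine alone, Foxa1 and Foxa2 peak in lung, Foxa3, Cebpa and Prox1 in liver, and Onecut1 stays below 1 throughout.

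Hnf4a was high in every tissue but lung. The gene (ENSMUSG00000017950.16) lies on chromosome 2 from 163506808 to 163572910 on the plus strand of GRCm38 and encodes the receptor that drives apolipoprotein, clotting factor and gluconeogenic genes in the hepatocyte. It stood at 61.5 and 60.3 FPKM in the 2 liver libraries, 58.7 and 79.3 in small intestine, 93.8 and 62.2 in kidney, and 0.764 and 0.350 in lung. Small intestine overlapped both liver and kidney, both kidney libraries lay above both liver libraries, and all 6 lay far above both lung libraries, where the values rested on 36 and 21 reads. The mean FPKM in liver was 109 times that in lung, and the limma difference between the 2 tissues on the log2(FPKM + 1) scale was 5.33 ± 0.25 (SE, n = 2 per tissue, adjusted p = 1.25e-06). Kidney, small intestine and liver were not separated from each other, with log2 differences between neighbours in that order of 0.16 ± 0.25 (limma adjusted p = 0.634) and 0.16 ± 0.25 (adjusted p = 0.607). The order of these 3 tissues is therefore not fixed by these data, and under median-of-ratios scaling liver stood above small intestine by 0.70. Of all genes tested, 36.2% were called between liver and small intestine, 23.1% between liver and kidney, 62.7% between liver and lung, 29.5% between small intestine and kidney, 40.6% between small intestine and lung and 50.3% between kidney and lung.

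The 2 kidney libraries differed 1.51-fold for Hnf4a as deposited, more than the 1.35-fold of small intestine and the 1.02-fold of liver. This ranking depended on the scaling. After median-of-ratios scaling Hnf4a stood at 91.0 and 86.5 in kidney, 53.2 and 75.7 in small intestine and 111.3 and 96.1 in liver. On the deposited scale, markers of the proximal tubule, the segment of the nephron known for Hnf4a, were also higher in the first kidney library for 4 of 5 genes. Slc34a1, the sodium phosphate cotransporter, stood at 987 and 655 FPKM and Lrp2, the megalin receptor, at 65.5 and 26.1, while Miox stood at 982 and 1175. The median-of-ratios factors of the 2 kidney libraries were 1.03 and 0.719, so this shared direction also depends on the scaling. The part of proximal tubule cells in the spread of Hnf4a was not tested.

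Hnf4a has 2 starts in RefSeq, 40298 bases apart, and a gene-level FPKM sums the transcripts of both. The DNA before the upstream start is shown because the 2 promoters are the part of the gene that these values cannot separate. Letters in capitals mark the Onecut motif ATCAAT, from base -59 to -54. Bases that GENCODE M21 places in an exon of the gene were left off the ends of the windows, and the sequences are RefSeq's for GRCm38.p6.
Hnf4a upstream start (chr2:163506607-163506807, plus strand): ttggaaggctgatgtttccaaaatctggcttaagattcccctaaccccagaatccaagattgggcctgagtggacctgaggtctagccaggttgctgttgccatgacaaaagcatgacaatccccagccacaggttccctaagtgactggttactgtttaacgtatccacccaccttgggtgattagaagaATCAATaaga

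Over all 32851 promoter windows of 250 upstream bases in the same table, searched on both strands, 6.72% held the Onecut motif, so single matches of this length are frequent and are a description only. Neither Hnf4a window held the HNF4 motif CAAAGTCC, found in 1.20% of windows, or the forkhead motif TGTTTAC, found in 3.17%.

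The antisense gene Hnf4aos overlaps the Hnf4a locus without sharing exon bases. It stood at 4.003 and 4.57 FPKM in liver, 4.14 and 3.05 in small intestine, 8.80 and 7.81 in kidney, and 0.107 and 0 in lung. Like Hnf4a it was low in both lung libraries, and unlike Hnf4a both of its kidney libraries lay above the other 6. Whether reads were counted by strand is not given in the sources used here.

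Hnf4g was close to a single-tissue gene. It lies on chromosome 3 from 3508030 to 3658052 on the plus strand (ENSMUSG00000017688.14) and encodes the paralogue of HNF4α that is best known from the enterocyte. Its FPKM was 43.7 and 74.1 in small intestine, 1.65 and 0.615 in kidney, 0.117 and 0.0306 in lung, and 0.0415 and 0.0368 in liver. Both intestine libraries lay above the other 6, both kidney libraries above liver and lung, and each liver library held 1 read, so Hnf4g was not detectable in liver at this depth.

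The mean Hnf4g FPKM was 52.0 times higher in small intestine than in kidney, a log2 difference of 4.81 ± 0.31 (SE), and small intestine against the mean of the other 3 tissues differed by 5.45 ± 0.25. Hnf4g passed the filter of 1 FPKM in 2 libraries through small intestine, so these differences are a description and their p is not used. Kidney exceeded lung by 0.95 ± 0.31, which passed the limma p threshold (adjusted p = 0.0257) but not the required difference of 1. It passed both with a pseudocount of 0.1 (2.73), with median-of-ratios scaling (1.08), equal sums (1.22) and quantile normalization (1.23), without the second kidney library (1.30), and with limma-voom on recovered reads with a filter (3.75) or without it (3.73).

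Paralogue use within the HNF4 family followed from these levels. The share of Hnf4g in the summed FPKM of both paralogues was 45.5% ± 3.99 (SD, n = 2) in small intestine, 1.35% ± 0.529 in kidney and 0.0642% ± 0.00453 in liver. In lung it was 10.7% ± 3.70, but of a family sum of only 39 and 22 reads. The log2 ratio of Hnf4g to Hnf4a, computed within each library with 0.1 added to both values, was -0.42 and -0.10 in small intestine, -5.75 and -6.44 in kidney, -8.77 and -8.79 in liver, and -1.99 and -1.78 in lung. The liver and lung ratios are largely set by the added 0.1, since Hnf4g was at 1 to 3 reads there, so they are no measure of use and no test of the ratio between tissues is used. Between small intestine and kidney, where both genes had 28 reads or more, the libraries did not overlap. Small intestine was thus the tissue with both paralogues at similar levels. It also had the highest mean family sum as deposited, 127.9 ± 36.0 FPKM against 79.1 ± 23.1 in kidney, 60.9 ± 0.831 in liver and 0.631 ± 0.353 in lung. After median-of-ratios scaling the sums of small intestine and liver overlapped. The first intestine library then held Hnf4a at 53.2 and Hnf4g at 39.6, and the liver libraries held Hnf4a at 111.3 and 96.1.

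**Figure D2:**
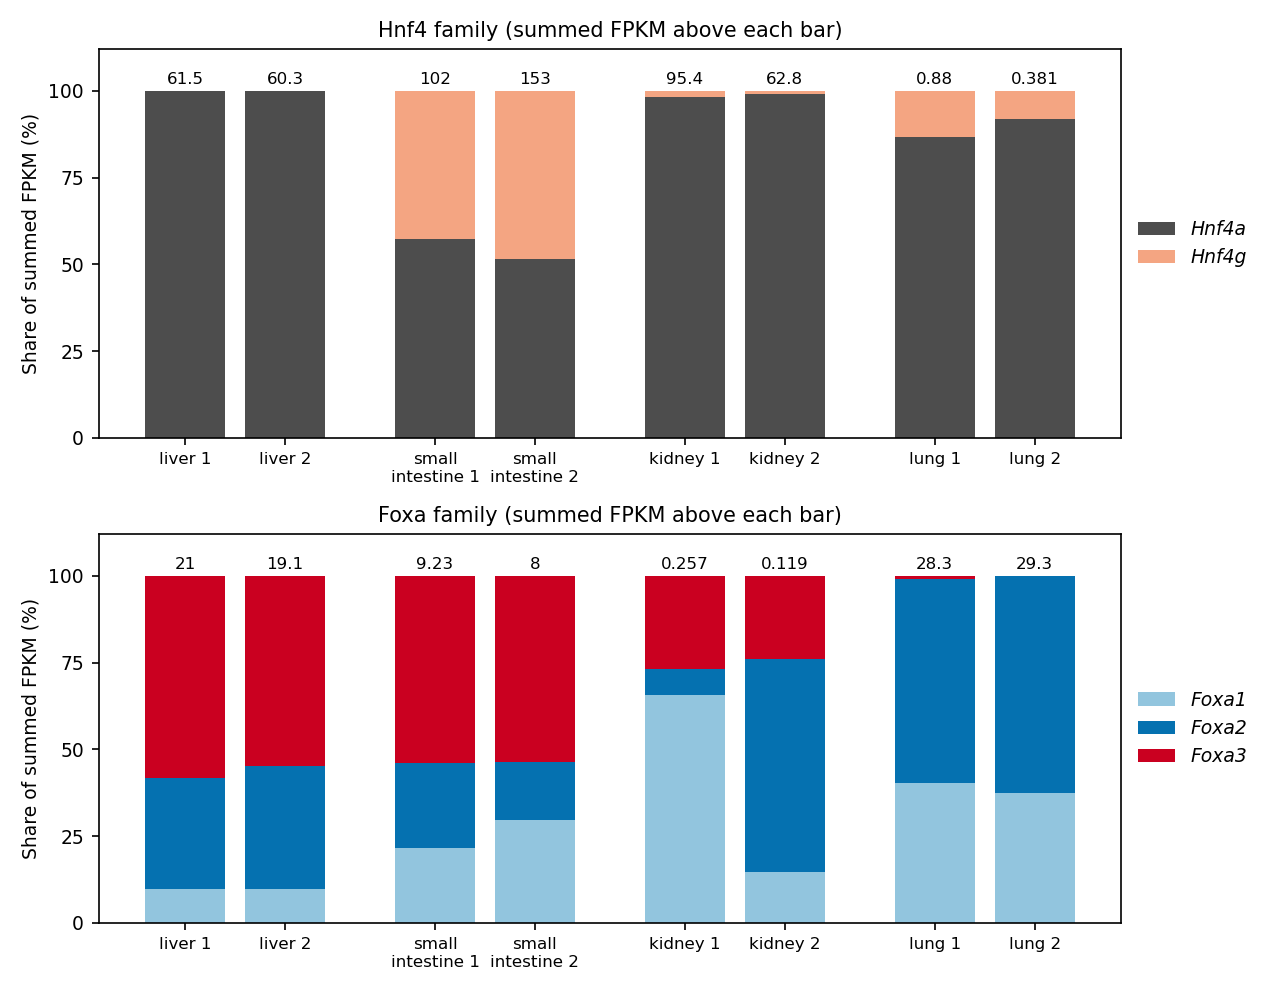
Share of each paralogue in the summed FPKM of its family, in percent, for every library, with the Hnf4 family above and the Foxa family below and the summed FPKM printed over each bar. Hnf4g takes 42.7% and 48.3% in the small intestine libraries and under 2% in liver and kidney, and Foxa3 takes more than 50% in liver and small intestine and about 1% or less in lung. The kidney bars of the Foxa family rest on 16 and 5 reads.

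Foxa1 and Foxa2 were highest in lung. Foxa1 (ENSMUSG00000035451.7, chromosome 12 from 57540628 to 57546916, minus strand) acts with Foxa2 in the epithelium of the branching lung and in the onset of liver development. Its FPKM was 11.4 and 10.9 in lung, 1.99 and 2.36 in small intestine, 2.07 and 1.86 in liver, and 0.168 and 0.0174 in kidney. Both lung libraries lay above the other 6 and both kidney libraries below them, while liver and small intestine overlapped. Lung exceeded small intestine by 1.94 ± 0.17 (limma adjusted p = 4.24e-05) and liver exceeded kidney by 1.44 ± 0.17 (adjusted p = 0.000404), whereas small intestine and liver differed by 0.10 ± 0.17 (adjusted p = 0.661).

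Foxa2 (ENSMUSG00000037025.11, chromosome 2 from 148042877 to 148046969, minus strand), a regulator of surfactant and bile acid genes, stood at 16.6 and 18.3 FPKM in the lung libraries. It was at 6.68 and 6.74 in liver, at 2.25 and 1.34 in small intestine and at 0.0197 and 0.0731 in kidney. Each tissue occupied its own range. Lung exceeded liver by 1.26 ± 0.20 (limma adjusted p = 0.000696), liver exceeded small intestine by 1.48 ± 0.20 (adjusted p = 0.000543) and small intestine exceeded kidney by 1.40 ± 0.20 (adjusted p = 0.000872). The step from lung to liver depended on the scaling between libraries, since under median-of-ratios scaling the liver stood 0.26 above lung and under quantile normalization the call was lost, and the other 2 steps did not. In kidney the values came from 1 and 3 reads, and none of Foxa1, Foxa2 and Foxa3 passed 12 reads in a kidney library.

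Foxa3 was distributed differently from its paralogues. The gene (ENSMUSG00000040891.6, chromosome 7 from 19013284 to 19023538, minus strand) encodes the FOXA factor known from the mature liver, where it binds near glucose and amino acid genes. It stood at 12.3 and 10.5 FPKM in liver, 4.98 and 4.29 in small intestine, 0.0687 and 0.0284 in kidney, and 0.302 and 0 in lung. Liver lay above small intestine in both libraries, and both lay above kidney and lung, where at most 6 reads were found. The liver excess over small intestine was 1.13 ± 0.20 (limma adjusted p = 0.00185) and that of small intestine over lung was 2.30 ± 0.20 (adjusted p = 3.40e-05). The first of these was no longer called with a pseudocount of 0.1 (1.27 ± 0.61, limma adjusted p = 0.106), nor with limma-voom on recovered reads with a filter (1.29, adjusted p = 0.0529) or without it (1.29, adjusted p = 0.0776).

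The Foxa family was therefore split into a Foxa3-led pattern and a Foxa2-led pattern. In liver the shares of Foxa1, Foxa2 and Foxa3 in the summed FPKM were 9.80% ± 0.0447, 33.6% ± 2.54 and 56.6% ± 2.49 (SD, n = 2). In small intestine they were 25.6% ± 5.63, 20.6% ± 5.41 and 53.8% ± 0.226, so that Foxa3 led in both tissues. In lung they were 38.9% ± 2.15, 60.6% ± 2.90 and 0.533% ± 0.754, and Foxa3 was close to absent. The family sum as deposited was 28.8 ± 0.703 FPKM in lung, 20.04 ± 1.37 in liver, 8.61 ± 0.870 in small intestine and 0.188 ± 0.0974 in kidney. The order of lung and liver in this sum turned with median-of-ratios scaling. Foxa3 alone then stood at 22.2 and 16.7 in liver, while in lung Foxa2 stood at 9.11 and 9.65 and Foxa1 at 6.29 and 5.76.

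The within-library log2 ratios are given as a description for the tissues in which both genes had more than 3 reads in each library. Foxa3 to Foxa2 averaged 0.75 ± 0.17 (SD, n = 2) in the liver libraries and 1.36 ± 0.35 in small intestine, and Foxa3 to Foxa1 averaged 2.47 ± 0.06 and 1.06 ± 0.32. Foxa1 to Foxa2 averaged -1.72 ± 0.11 in liver, 0.30 ± 0.67 in small intestine and -0.64 ± 0.15 in lung. Kidney, with 1 to 12 reads per gene, and Foxa3 in lung, with 6 and 0 reads, give no usable ratio, so a test over all 4 tissues was not used. Sharing of reads between the paralogues is limited, since 0.243% of the 31-base words in Foxa1 exons and 0.338% of those in Foxa2 exons occur in the other gene.

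The DNA before the Foxa starts is shown because the 3 paralogues divide the tissues between them. Letters in capitals mark the forkhead motif TGTTTAC (read here as GTAAACA) before Foxa1, from base -141 to -135, the Onecut motif (read here as ATTGAT) before the most upstream of 3 Foxa2 starts, from -213 to -208, and the TATA motif TATAAA before Foxa3, from -36 to -31. The sequences are RefSeq's for GRCm38.p6, each written in the direction of the gene.
Foxa1 start (chr12:57546122-57546361, minus strand): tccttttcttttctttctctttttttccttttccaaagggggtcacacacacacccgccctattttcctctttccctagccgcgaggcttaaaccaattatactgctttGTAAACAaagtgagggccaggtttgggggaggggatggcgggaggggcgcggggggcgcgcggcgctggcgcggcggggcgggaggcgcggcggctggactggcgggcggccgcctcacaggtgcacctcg
Foxa2 most upstream start (chr2:148046970-148047219, minus strand): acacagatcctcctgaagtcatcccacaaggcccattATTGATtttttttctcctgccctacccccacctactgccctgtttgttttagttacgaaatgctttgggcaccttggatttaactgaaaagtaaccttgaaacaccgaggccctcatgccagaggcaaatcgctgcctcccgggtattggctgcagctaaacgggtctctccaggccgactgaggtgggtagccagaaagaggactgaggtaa
Foxa3 start (chr7:19023540-19023789, minus strand): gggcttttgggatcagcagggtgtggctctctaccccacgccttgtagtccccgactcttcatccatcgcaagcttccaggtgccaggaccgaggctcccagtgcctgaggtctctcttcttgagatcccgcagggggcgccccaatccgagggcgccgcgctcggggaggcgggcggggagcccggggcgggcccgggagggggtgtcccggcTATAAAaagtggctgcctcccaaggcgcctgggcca

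The TATA motif occurs in 12.4% of all windows and was also found before Cebpa, from -30 to -25, before the more upstream of 2 Prox1 starts, from -34 to -29, and farther from the most downstream Foxa2 start, from -208 to -203. The forkhead motif was found before no member other than Foxa1, and the C/EBP motif TTGCNNAA, held by 9.56% of windows, before none of the 7 members with a sequence. A motif that is missing from these windows may lie elsewhere, and no match was tested.

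Cebpa was high in 2 tissues and present in all. It lies on chromosome 7 from 35119293 to 35121928 on the plus strand (ENSMUSG00000034957.10) and encodes C/EBPα, a leucine zipper factor of hepatocytes, adipocytes, myeloid cells and alveolar epithelium. Its FPKM was 67.1 and 75.3 in liver, 40.8 and 48.1 in lung, 15.8 and 13.4 in small intestine, and 7.48 and 7.50 in kidney, with at least 342 reads in every library. No 2 tissues overlapped. Lung exceeded small intestine by 1.55 ± 0.15 (limma adjusted p = 8.04e-05), and the other steps, liver over lung by 0.67 ± 0.15 (adjusted p = 0.00452) and small intestine over kidney by 0.87 ± 0.15 (adjusted p = 0.00258), passed the p threshold but not the required difference of 1. The step from lung to small intestine was not called after median-of-ratios scaling (0.78), and that from liver to lung was called after it (2.29) and after quantile normalization (1.15).

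The Cebpa call in lung depended on the scaling. Against the mean of the other 3 tissues Cebpa was higher in lung by 1.10 ± 0.13 (limma adjusted p = 0.000125) on the deposited scale, by 0.78 after libraries were set to equal sums without mitochondrial genes and by 0.74 after quantile normalization, and stood at -0.05 after median-of-ratios scaling. It was also not called without the second lung library (0.98). In small intestine Cebpa, at -0.96, was not called, and it was called lower after median-of-ratios scaling (-1.09), equal sums (-1.03) and quantile normalization (-1.15), and without the first intestine (-1.07) or the first lung library (-1.002). Cebpa is also a gene of macrophages and neutrophils, whose 5 markers summed to 5362 and 5193 FPKM in lung against 25.03 to 117 in the other 6 libraries, with all 5 called higher in lung. Lyz2, also a gene of alveolar type 2 cells, made up 5269 and 4833 of the lung sums, and S100a8 and S100a9 differed between the lung libraries, at 23.6 and 110.5 and at 36.3 and 214. Of 4 adipocyte markers, Cidec was the main one in small intestine, at 32.2 and 50.01 FPKM, where Adipoq stood at 4.18 and 2.43 and Plin1 at 0.138 and 0.114. In lung Cidec stood at 14.5 and 10.4 and Adipoq at 8.90 and 5.19. The part of these cells in the Cebpa level was not tested.

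Onecut1 was the weakest member. It encodes HNF6, a cut-homeodomain factor of hepatoblasts and biliary cells, and lies on chromosome 9 from 74861921 to 74891781 on the plus strand (ENSMUSG00000043013.10). It stood at 0.212 and 0.683 FPKM in liver, from 8 and 29 reads, and was listed at 0 in the other 6 libraries. Both liver libraries therefore lay above the rest (exact permutation test over 28 choices, p = 0.0357, the smallest possible), but the gene did not reach 1 FPKM in any library and was left out of the limma fit. Within its exons, 52.5% of the 31-base words are shared with Gm20649, a lincRNA on the same strand that overlaps 2171 of its exon bases and was listed at 0 in all 8 libraries, so the level of Onecut1 is uncertain.

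Prox1, the homeobox factor of hepatoblasts, hepatocytes and lymphatic endothelium, lies on chromosome 1 from 190118035 to 190170714 on the minus strand (ENSMUSG00000010175.13). It stood at 4.03 and 8.64 FPKM in liver, 0.867 and 0.489 in kidney, 0.427 and 0.393 in lung, and 0.178 and 0.305 in small intestine. Both liver libraries lay above the other 6, although they differed 2.14-fold from each other, the largest spread between replicates of a member above 1 FPKM in both libraries. Prox1 reached 1 FPKM in the liver libraries alone and passed the filter through them, so the liver excess over kidney of 2.06 ± 0.29 (SE) is a description whose p is not used, while kidney over lung (0.24 ± 0.29, limma adjusted p = 0.476) and lung over small intestine (0.19 ± 0.29, adjusted p = 0.599) were not separated.

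The summed FPKM of 5 lymphatic endothelial markers was 397 and 389 in lung against 5.89 to 29.8 in the other 6 libraries. Ccl21a, at 199 and 204, and Lyve1, at 127 and 114, made up most of the lung sums, and Flt4 stood at 3.63 and 4.64. Prox1 stood at 0.427 and 0.393 in the lung libraries. The part of lymphatic cells in the Prox1 level was not tested. The antisense gene Prox1os, which shares 133 exon bases with Prox1, followed Prox1 closely, at 4.22 and 6.67 FPKM in liver, 0.282 and 0.0698 in kidney, 0 in both intestine libraries, and 0 and 0.0972 in lung. Both liver libraries lay above the other 6, and the second liver library above the first, for both genes. Since strand use is not known, part of either value could come from the other gene, and this was not tested.

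Set against the mean of the other 3 tissues, the members gave each tissue its own combination. Of the 8 members 7 passed the filter of 1 FPKM in at least 2 libraries. Hnf4g passed through small intestine and Prox1 through liver, so these 2 had to differ between tissues, and the counts below describe the members without supporting anything about them. In liver 5 members were called higher (Foxa3, Prox1, Cebpa, Hnf4a and Foxa2) beside 6.56% of all genes tested, and 1 lower (Hnf4g) beside 32.7%. In small intestine 3 were called higher (Hnf4g, Hnf4a and Foxa3) beside 13.7%, and 1 lower (Prox1) beside 11.3%. In kidney 1 was called higher (Hnf4a) beside 8.65%, and 4 lower (Foxa2, Foxa1, Cebpa and Foxa3) beside 16.1%. In lung 3 were called higher (Foxa2, Foxa1 and Cebpa) beside 40.7%, and 3 lower (Hnf4a, Hnf4g and Foxa3) beside 8.26%. The split of all calls depended on the scaling, since calls of higher made up 16.7% in liver, 35.0% in kidney and 83.1% in lung as deposited and 46.8%, 48.8% and 47.7% after median-of-ratios scaling.

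The exact permutation test of a tissue against the other 6 libraries was less decisive than the limma fit. Of the 21 calls of members, 7 stood at 0.0357, the smallest p that 28 choices allow, among them Hnf4g in small intestine and Prox1 in liver, and 14 stood above it. Where a gene was high in several tissues the exact p was large, at 0.821 for Hnf4a in liver, 0.536 in small intestine and 0.250 in kidney, 0.429 for Foxa2 in liver and for Foxa3 in small intestine, and 0.393 for Cebpa in lung.

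The largest of these differences in liver was that of Foxa3, 2.71 ± 0.16 (SE, limma adjusted p = 6.98e-06), or 3.43 above the median gene. Prox1 followed at 2.29 ± 0.24, Cebpa at 1.99 ± 0.13 (adjusted p = 9.89e-06), Hnf4a at 1.61 ± 0.20 (adjusted p = 0.000247) and Foxa2 at 1.04 ± 0.17 (adjusted p = 0.000844). Relative to the median gene of the liver comparison these 4 stood 3.01, 2.71, 2.34 and 1.76 higher. Foxa2 lay close to the required difference of 1 and fell to 0.96 without the second small intestine library. Foxa1, at -0.23 ± 0.14 (adjusted p = 0.162), was the member tested without a call in liver.

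Kidney combined a high level of Hnf4a with little RNA of the forkhead factors. Hnf4a was higher by 2.04 ± 0.20 (limma adjusted p = 0.000115), while Foxa2 fell by 2.81 ± 0.17 (adjusted p = 1.06e-05), Foxa1 by 2.15 ± 0.14 (adjusted p = 1.65e-05), Cebpa by 2.12 ± 0.13 (adjusted p = 1.11e-05) and Foxa3 by 2.03 ± 0.16 (adjusted p = 3.97e-05). Relative to the median gene of the kidney comparison, Hnf4a stood 2.38 higher and Foxa2 had a difference of -2.47.

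Lung combined little Hnf4a with high Foxa1 and Foxa2, while Foxa3 was called lower there as in kidney. Foxa2 was higher by 2.71 ± 0.17 (limma adjusted p = 4.57e-06) and Foxa1 by 2.49 ± 0.14 (adjusted p = 3.22e-06), and Hnf4a fell by 5.49 ± 0.20 (adjusted p = 6.09e-07). Relative to the median gene of the lung comparison, Foxa2 and Foxa1 stood 1.89 and 1.67 higher, Cebpa only 0.28. The intestinal differences of Hnf4a, 1.83 ± 0.20 (adjusted p = 0.000180), and Foxa3, 1.20 ± 0.16 (adjusted p = 0.000517), were smaller than that of Hnf4g. The Foxa3 call in small intestine was lost after median-of-ratios scaling (0.90) and quantile normalization (0.94). There Prox1, at -1.03 ± 0.24, lay near the threshold and was not called without the second liver library (-0.88), without either intestine library (-0.96 and -1.11) or without the first kidney library (-0.98).

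**Figure D3:**
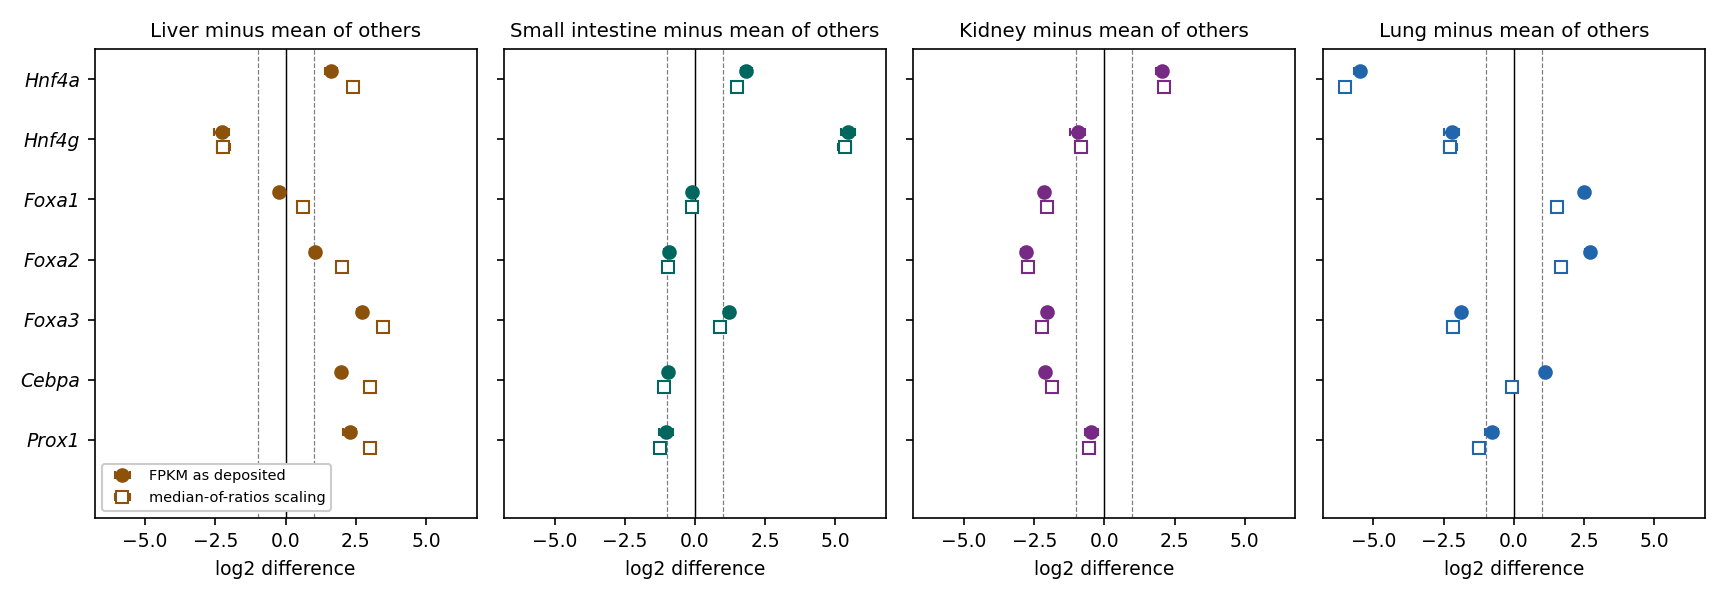
Difference of each tested member between a tissue and the mean of the other 3 on the log2(FPKM + 1) axis, in 1 panel per tissue, with filled circles for FPKM as deposited, open squares after median-of-ratios scaling, bars for the standard error and dashed lines at the required difference of 1. Most pairs of symbols lie on the same side of 0, and the pairs that do not are Foxa1 in liver, at -0.23 and 0.61, and Cebpa in lung, at 1.10 and -0.05.

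Paralogues of the members outside the 8 genes were counted in the same way. Of 7 family paralogues listed, 5 were tested, and Onecut3 and Prox2 stayed under the filter. In liver 3 were called higher and 1 lower, beside 6.56% and 32.7% of all genes tested, with a median log2 difference of 1.01 beside -0.72 for all genes. In small intestine 1 and 1 were called, beside 13.7% and 11.3% (median -0.30 beside -0.01). In kidney 0 and 5 were called, beside 8.65% and 16.1% (-1.57 beside -0.34), and in lung 3 and 1, beside 40.7% and 8.26% (1.14 beside 0.82). In kidney all 5 had a log2 difference below 0, and the lower call of Cebpg was lost with each of the 3 other scalings, as was its higher call in lung.

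Onecut2 was more abundant than Onecut1. It stood at 3.85 and 3.54 FPKM in liver, 5.07 and 3.87 in small intestine, and at most 0.138 in kidney and lung. The libraries of liver and small intestine lay next to each other without overlapping, far above the other 4, and Onecut2 was called higher in liver (1.38 ± 0.14, limma adjusted p = 8.75e-05) and in small intestine (1.66 ± 0.14, adjusted p = 3.96e-05).

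The C/EBP paralogues were spread over liver and lung in different ways. Cebpd, an acute phase and stress factor, was at 25.2 and 28.7 FPKM in lung against 0.509 to 2.97 elsewhere, a difference of 3.58 ± 0.15 (limma adjusted p = 8.82e-07). Cebpb stood at 31.7 and 47.5 in lung and 22.4 and 21.3 in liver, and was called higher in both tissues, by 2.08 ± 0.18 in lung (adjusted p = 2.35e-05) and by 1.01 ± 0.18 in liver (adjusted p = 0.00130), the same order of tissues as Cebpa except that lung came first. The lung call of Cebpb was lost with median-of-ratios scaling (0.95) and its liver call with equal sums (0.87), while the lung call of Cebpd held under the 3 other scalings. Cebpe, known from granulocytes, was at 5.19 and 4.60 in liver and at most 0.843 elsewhere. It passed the filter through liver alone, so its difference of 2.09 ± 0.15 is a description and its p is not used. The granulocyte markers S100a8 and S100a9 stood at 1.88 FPKM or less in liver, and the part of such cells in the Cebpe level was not tested.

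Of the 12 partners and regional factors, all tested, 7 were called higher and 3 lower in liver, beside 6.56% and 32.7% of all genes tested (median log2 difference 1.61 beside -0.72 for all genes). In small intestine 5 and 4 were called, beside 13.7% and 11.3% (0.68 beside -0.01). In kidney 2 and 8 were called, beside 8.65% and 16.1% (-1.59 beside -0.34), and in lung 4 and 7, beside 40.7% and 8.26% (-1.57 beside 0.82). Small intestine carried the regional factor Cdx2, the caudal homeobox factor of the intestine, at 23.9 and 27.5 FPKM against 0.0256 or less elsewhere. Cdx2 passed the filter through small intestine alone, so its difference of 4.73 ± 0.12 is a description and its p is not used. Gata4 stood at 25.6 and 25.2 in small intestine against 2.41 or less, a difference of 4.06 ± 0.14 (limma adjusted p = 5.30e-07). Lung carried Nkx2-1, the homeobox factor of lung and thyroid, at 52.9 and 58.6 against 0.142 or less. It passed the filter through lung alone, so its difference of 5.77 ± 0.13 is a description and its p is not used. Gata6 was found in both tissues, at 23.6 and 26.7 in small intestine and 10.2 and 11.1 in lung, where its call was lost with median-of-ratios scaling (0.42) and quantile normalization (0.50). The lung calls of Hhex and Nr2f2 were lost with the same scalings.

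Liver was set apart by Nr0b2, the corepressor SHP, at 56.0 and 42.4 FPKM against 0.213 to 5.19 elsewhere (4.16 ± 0.19, limma adjusted p = 1.80e-06). Creb3l3, a membrane-bound factor of lipid metabolism, was shared by small intestine, at 119.9 and 156 FPKM, and liver, at 71.3 and 71.8, and stood at 0.441 or less in kidney and lung, the same 2 groups of tissues as for Foxa3. Nr1h4, the bile acid receptor FXR, was at 24.4 and 32.0 in liver, 30.3 and 30.4 in kidney and 11.9 and 14.6 in small intestine, and at 0.280 or less in lung, the same tissues as for Hnf4a.

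**Figure D4:**
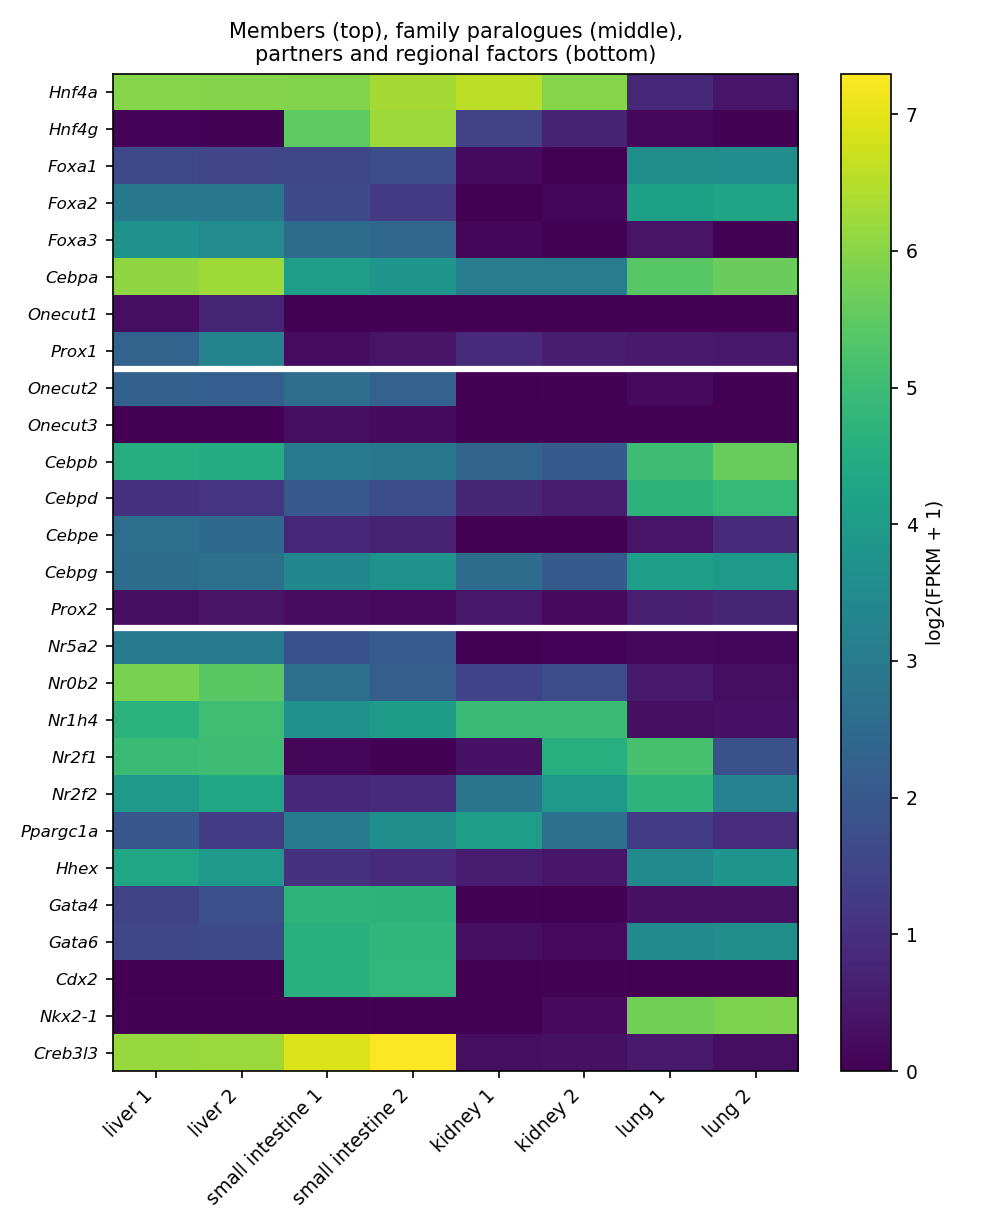
Level of the 8 members, 7 family paralogues and 12 partners and regional factors in each of the 8 libraries, as colour on a log2(FPKM + 1) scale. Both libraries of a tissue have similar colours for most genes, and exceptions are Nr2f1 and Nr2f2 in kidney and lung, where Nr2f1 stands at 0.275 and 22.9 FPKM in the kidney libraries and at 35.4 and 2.496 in the lung libraries.

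Genes known from textbooks as targets of these factors were counted in the same way. Of 16 listed, all tested, 14 were called higher and 2 lower in liver, beside 6.56% and 32.7% of all genes tested (median log2 difference 4.26 beside -0.72 for all genes). In small intestine 4 and 9 were called, beside 13.7% and 11.3% (-2.29 beside -0.01). In kidney 2 and 10 were called, beside 8.65% and 16.1% (-2.63 beside -0.34), and in lung 3 and 12, beside 40.7% and 8.26% (-2.54 beside 0.82). Most of the list is made of hepatocyte genes, so its direction in liver is set by the choice of genes.

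Levels of 2 listed targets are given beside those of Hnf4a. Apoc3, an apolipoprotein gene, stood at 894 and 915 FPKM in liver and 603 and 498 in small intestine, but at 4.23 and 6.04 in kidney, where Hnf4a was at 93.8 and 62.2. Mttp, the microsomal transfer protein that loads lipid on apolipoprotein B, stood at 259 and 291 in small intestine, 26.3 and 27.1 in liver, and 1.97 and 1.82 in kidney. Both genes were low in kidney, and the relation of their levels to Hnf4a was not tested.

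The gluconeogenic genes were arranged otherwise. G6pc, glucose-6-phosphatase, stood at 167 and 287 FPKM in liver, 254 and 198 in kidney, 32.7 and 42.0 in small intestine, and 1.48 and 0.733 in lung, and Pck1, the cytosolic carboxykinase, at 870 and 690, 598 and 258, 41.8 and 121, and 9.05 and 3.45 in the same order. Liver and kidney overlapped for G6pc, and these were the 2 listed targets called higher in kidney.

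The 3 listed targets with the largest differences in liver encode hepatocyte proteins. Alb, serum albumin, was called higher in liver by 10.25 ± 0.35 (limma adjusted p = 3.93e-07), Tat, tyrosine aminotransferase, by 8.75 ± 0.26 (adjusted p = 1.99e-07) and Ttr, transthyretin, by 7.94 ± 0.28 (adjusted p = 4.88e-07). Ttr also had a clear level in another tissue, 52.6 and 94.0 FPKM in kidney against 3798 and 3699 in liver. In lung the FOXA and NKX2-1 targets Scgb1a1, the club cell secretoglobin, and Sftpb, surfactant protein B, were called higher by 10.44 ± 0.30 (adjusted p = 3.09e-07) and 9.67 ± 0.18 (adjusted p = 1.62e-07).

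For each tested member, the genes with the most similar profile were found as those with the smallest root mean square difference of centred log2(FPKM + 1) over the 8 libraries, a description with no test. Hnf4g was nearest to Anpep, an aminopeptidase of the brush border (0.351 log2 units), Ccl25, a chemokine of the small intestine (0.391), and Slc5a4a (0.429). Hnf4a was nearest to Ephx2, soluble epoxide hydrolase (0.402), Ces1f, a carboxylesterase (0.491), and BC025446 (0.541).

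Foxa3 was nearest to Ugt1a1, the bilirubin glucuronosyltransferase (0.249), 2810459M11Rik (0.272) and Nr5a2 (0.319), the last of which is a receptor on the list of partners and stood at 6.84 and 6.86 FPKM in liver and 2.61 and 3.34 in small intestine. Cebpa was nearest to Qsox1 (0.228), Scarb1, the HDL receptor (0.289), and Atoh8 (0.296), and Prox1 to Slco1a4, an organic anion transporter (0.148), Prox1os (0.179) and Gm24855 (0.204).

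Foxa1 was nearest to Lum, the stromal proteoglycan lumican (0.176), Mmp15 (0.194) and Slco2a1, a prostaglandin transporter (0.204), and Foxa2 to Ifitm3, an interferon-induced gene (0.344), Dcn, the stromal proteoglycan decorin (0.353), and Cfp, properdin of myeloid cells (0.365). With 4 tissues of 2 libraries each, the likeness rests on 4 levels, and many genes of different cell types can share such a profile.

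Markers of other cell types also moved with the tissues in which the members were called. In small intestine the 8 pancreatic acinar markers summed to 2715 and 1245 FPKM, against 0.761 to 6.09 in the other 6 libraries. All 8 were called higher, beside 13.7% of all genes tested. The 5 enteroendocrine markers summed to 247.8 and 136, against at most 4.38. Goblet cell markers summed to 1502 and 1278 there, against at most 12.3. Hnf4g stood at 43.7 FPKM in the intestine library with more acinar and enteroendocrine marker RNA and at 74.1 in the other, and the enterocyte markers summed to 5456 and 7085, of which Fabp2 made up 4472 and 6134, while Alpi stood the other way at 639.7 and 474. In lung the 3 club cell markers summed to 45858 and 61432, the 4 ciliated cell markers to 375 and 393 and the 5 cardiac muscle markers to 217 and 223, the last against at most 9.10 in the other tissues. The summed FPKM of the 5 cholangiocyte markers was lowest in liver, at 39.4 and 61.1, mostly Spp1 at 33.9 and 57.4, against 179.5 to 1088 in the other 6 libraries. The part of these cells in the members' levels was not tested.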

How the data were processed

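RNA of whole mouse tissues was captured on mRNA beads, made into double-stranded cDNA and turned into libraries with a transposase kit. Per the study's methods, the authors aligned reads with STAR 2.5.3a to the Ensembl mouse genome (GRCm38) and deposited FPKM values computed with DESeq2. The counting program, its strand setting and its handling of reads with several matches are not given in the sources used here.

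Genes at 1 FPKM or more in at least 2 libraries (16328) were fitted on log2(FPKM + 1) over all 8 libraries with limma 3.58.1 (R 4.3.3, trended variance), comparing every tissue with the average of the remaining 3, and the 6 tissue pairs. A call needed a Benjamini-Hochberg adjusted p under 0.05 within the comparison and a log2 difference above 1. Exact permutation tests compared each tissue with the other 6 libraries; planned tests of paralogue ratios are not used, since several ratios rest on the added constant. The fit was also run on simulated counts with a small set of genes changed in liver alone. These counts lacked the shifts of the median gene between tissues seen here, so that run says nothing about the scaling. Whole reads were recovered from FPKM and GENCODE M21 exon lengths, with 94.5% to 96.1% of values up to 50 reads whole within 0.02. Named genes were the members, up to 4 called genes of largest difference per list and tissue, and the 3 nearest profiles. Further list genes were named after their values were seen. The members and lists were chosen with earlier results of these data known. The 4 tissues came from each mouse, but no label says that a replicate number marks a mouse. Some genes of the planned lists are not reported here.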

Additional observations from a re-analysis of the deposited data

How the results depend on the processing

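Of 834 alternative values for 50 log2 differences of members, 770 kept their direction and call, 15 lost the call, 22 gained it and 27 changed sign. The causes were not tested. After median-of-ratios scaling the sign changed for Hnf4a between liver and small intestine (0.70), Hnf4g between liver and lung (0.037), Foxa1 in liver against the other tissues (0.61) and between liver and small intestine (0.52), Foxa2 between liver and lung (0.26), Cebpa in lung against the other tissues (-0.053) and Prox1 between small intestine and lung (0.0043). Quantile normalization gave 0.26, 0.33, 0.55 and 0.54 for the first 4 of these, 0.21 for Prox1, and 0.14 for Foxa3 between kidney and lung. With a pseudocount of 0.1, with limma-voom on recovered reads and with the same without a filter, Hnf4g in kidney stood at 0.022, 0.71 and 0.70, Foxa1 in liver at 0.32, 0.73 and 0.73, and Foxa1 in small intestine at 0.50, 0.93 and 0.93. Limma-voom on recovered reads without a filter was chosen after seeing the data. Leaving out 1 library gave -0.37 to 0.052 for Hnf4a between liver and small intestine (above 0 without the second intestine library), -0.45 to 0.13 for Hnf4a between small intestine and kidney (above 0 without the first intestine or the first kidney library), and, above 0 without the first lung library, -0.10 to 0.012 for Hnf4g between liver and lung and -0.31 to 0.068 for Foxa3 between kidney and lung.

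The number of members called lower in small intestine, 1 as reported, was 2 with median-of-ratios scaling, 2 with equal sums, 3 with quantile normalization and 0 to 2 with 1 library left out. Listed genes called higher in lung numbered 10, and 4 with median-of-ratios scaling and 6 with quantile normalization. By recovered reads, which are not per length, the share of Hnf4a was 99.96% in liver, 68.7% in small intestine, 99.3% in kidney and 93.9% in lung, and that of Hnf4g 0.0350%, 31.3%, 0.742% and 6.12%. Foxa1 then took 14.3% in liver, 34.8% in small intestine and 47.2% in lung, Foxa2 52.4% in lung, and Foxa3 50.7% in liver, 45.05% in small intestine and 19.4% in kidney. The exact test of the Foxa1 to Foxa2 ratio over 105 divisions, not used because of the few kidney reads, gave 0.152, and 0.0286 with a pseudocount of 1.

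Same-numbered libraries did not deviate together (correlations of -0.217 to 0.0528 between tissues). With the replicate number as a block, the members called stayed at 5 higher and 1 lower in liver, 3 and 1 in small intestine, 1 and 4 in kidney, and 3 and 3 in lung. Depth limits Hnf4g in liver and lung, Foxa genes in kidney and Onecut1 outside liver, each at a few reads or none.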

Other observations

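Nr2f1 and Nr2f2, which encode COUP-TF receptors that bind many of the sites used by HNF4, differed between libraries of the same tissue. Nr2f1 stood at 0.275 and 22.9 FPKM in the kidney libraries and at 35.4 and 2.496 in the lung libraries, while both liver libraries, at 30.2 and 31.5, and both intestine libraries, at 0.0839 and 0.0347, were close to each other. Nr2f2 stood at 5.98 and 14.5 in kidney and at 25.7 and 8.49 in lung, so the same kidney and lung libraries were high for both genes. These values were chosen after they were seen.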
